A study of Mus musculus with 35 samples.

Results

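The libraries described here were made from m6A-immunoprecipitated RNA of the hippocampus of control mice, which had received PBS in the amygdala and were collected 24 hours or 2 weeks later. They were taken as all PBS libraries labelled m6A, 8 of the 35 libraries of the series, with 3 at 24 hours (mice 71, 73 and 1) and 5 at 2 weeks (mice 50, 78, 2, 3 and 4). Which count columns hold m6A libraries was inferred from the opening digit of the column names. No kainic acid was given to these animals, so the comparison asks how far the reference samples of the 2 time points differ from each other. The methods of the study describe male C57BL/6JOlaHsd mice, 7 to 9 weeks old, that had a cannula implanted over the amygdala under isoflurane 2 to 3 days before the injection. The IAKA mice (intra-amygdala kainic acid) received lorazepam after 40 minutes, and whether PBS mice did was not stated. The 2-week mice were older at collection, and age and time since surgery cannot be told apart. The clock time of collection was not given.

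The m6A mark is a methyl group on internal adenosines of mRNA, placed by a nuclear writer complex built on METTL3 and METTL14, removed by FTO and ALKBH5, and bound by YTH-domain readers. An antibody to m6A pulls down fragments that carry it, so a count in such a library reflects both the amount of an RNA and its methylation. Immediate early genes are transcribed within minutes of neuronal firing with no need for new protein, and their hippocampal mRNA follows recent activity, novelty, handling and seizures.

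The 8 libraries held 6579414 to 27894393 counts. Their column names open with 4 (mice 71, 73, 50 and 78) or 5 (mice 1, 2, 3 and 4). Each of these library sets held both times. The set was a term in every main test but that of pulldown against input. The library of 2-week mouse 4 stood apart. It had the lowest total and the fewest genes with a count (17405 against 19897 to 25602), correlated with the other 7 at r = 0.860 to 0.910 across genes (the other pairs at 0.917 to 0.983), and lay alone on the first principal component. The second component, with 20.3% of the variance, separated the sets among the other 7. Markers of the labelled tissue were present in all 8: the summed level was 303 to 756 CPM (counts scaled to a common library total) for 9 dentate granule cell genes, 182 to 357 for 8 CA3 genes and 488 to 698 for 8 CA1 genes.

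In all, 16182 genes were tested and none passed an adjusted p of 0.05 (edgeR's quasi-likelihood test with Benjamini-Hochberg adjustment, 0% of genes called). Arc had the smallest adjusted p, 0.363, and Egr1 the next, 0.601; every other gene named below was at 0.999. At an unadjusted p under 0.05 there were 437 genes (2.7%), with 181 higher (1.12%) and 256 lower (1.58%) at 24 hours. That share is below the threshold itself, which is the share expected with no difference at all. Without 2-week mouse 4 the count was 1284 of 16103 genes. Other tools made calls on the same counts. DESeq2 called 14 genes (0.0865%), 13 of them lower at 24 hours, and limma's voom with library quality weights called 10 (0.0618%), 8 of them lower; 9 genes were called by both. Of the 14 from DESeq2, 7 were immediate early genes (Arc, Egr1, Nr4a1, Npas4, Egr2, Dusp6 and Ier5). The values that follow are therefore descriptions of these 8 libraries, ordered by edgeR's unadjusted p, and a log2 fold change is 24 hours minus 2 weeks. The 24 genes of the naming rule were required to show no overlap of the times within either set. Absence of overlap in them is thus no independent support.

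Immediate early genes were lower at 24 hours than at 2 weeks. All 34 listed members were tested: 17 were lower at an unadjusted p under 0.05, against 1.58% of all genes, and none was higher. Their median log2 fold change was -0.57, against -0.02 over all genes, and 32 of 34 were below 0 where 53.2% of all genes were. In 17 members every 24-hour library lay below every 2-week library within both sets, against 5.39% of all genes, and in 1 member (Maff) above, against 4.37%. The median was -0.53 within set 4 and -0.58 within set 5, which share no animal, and 27 of the 34 were below 0 in both. Leaving out mouse 4 left 19 lower, where 1284 of 16103 genes were past that p in either direction. Over the 8 fits that each left out 1 library the count was 12 to 20, with none higher in any of the 8. It was 12 without 24-hour mouse 1, where 0.873% of all genes were lower. Without the set as a block 8 were lower, against 0.68% of all genes. This list was drawn up with results of these data already known, so it is no independent evidence of its direction.

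Arc (chromosome 15, 74669081 to 74672570 in GRCm38.p6), which encodes a synaptic protein that drives internalization of AMPA receptors, was at 34.9 and 47.8 CPM in 24-hour mice 71 and 73 and at 102 and 180.2 in 2-week mice 50 and 78 of the same set. In set 5 it was at 10.4 in 24-hour mouse 1 and at 33.5, 34.7 and 41.9 in 2-week mice 2, 3 and 4. The times did not overlap within either set, but set 5 was lower as a whole, so the 2-week mice of set 5 lay in the range of the 24-hour mice of set 4. The log2 fold change was -1.79 with a standard error (SE) of 0.22, -1.77 in set 4 and -1.79 in set 5.

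Egr1 (chromosome 18, 34861207 to 34864956), a zinc-finger transcription factor, was at 23.6, 51.1 and 15.5 CPM in 24-hour mice 71, 73 and 1. At 2 weeks it was at 128, 138, 95.0, 56.8 and 70.9 CPM in mice 50, 78, 2, 3 and 4. All 3 early libraries were below all 5 late ones, a separation seen in that direction in 1.05% of genes (170). The naming rule already asked for separation within both sets, which 873 genes had in that direction. The group means of Egr1 were 30.1 ± 18.7 (SD, n = 3) and 97.8 ± 35.2 CPM (SD, n = 5). Its log2 fold change was -2.01 (SE 0.29). The other transcription factors of the list were much scarcer. Npas4, a neuronal factor induced by calcium entry, was at 1.45, 3.75 and 1.10 CPM at 24 hours and at 6.72, 12.7, 9.17, 3.21 and 12.9 at 2 weeks, with log2 fold change -2.27 (SE 0.57). Fos, a subunit of AP-1, was at 3.99, 2.68 and 1.02 CPM against 5.48, 14.8, 7.16, 4.06 and 18.2, and the times did not overlap.

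**Figure D1:**
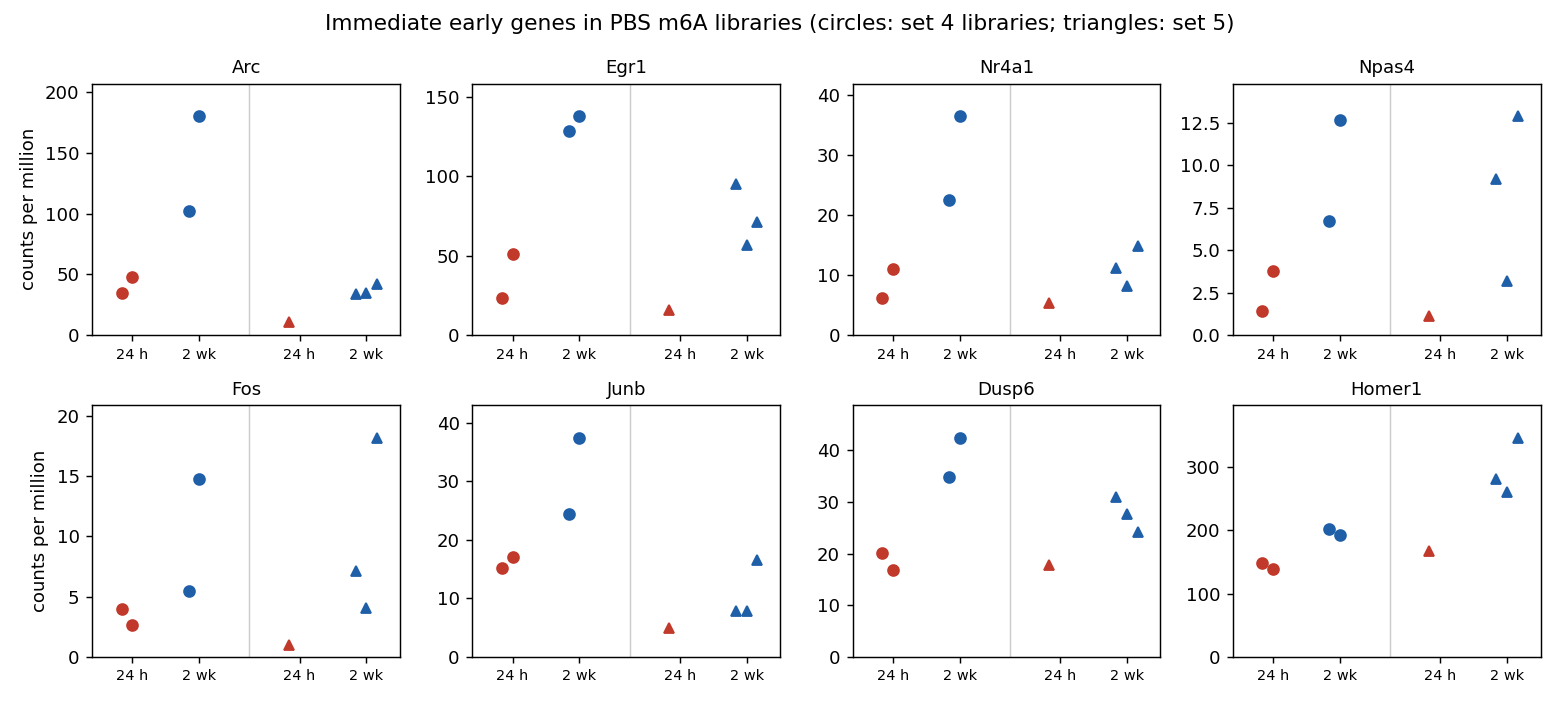
Level of 8 immediate early genes (CPM, linear axes from 0) in each PBS m6A library, with 24-hour mice in red, 2-week mice in blue, set 4 as circles and set 5 as triangles. Within each set every 24-hour point lies below every 2-week point, and for Arc and Nr4a1 the 2-week triangles fall near the 24-hour circles.

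The nuclear receptor Nr4a1 was at 6.26, 11.0 and 5.34 CPM at 24 hours and at 22.5, 36.4, 11.2, 8.18 and 14.9 at 2 weeks (log2 fold change -1.49, SE 0.32). Members of the feedback on ERK signalling differed in the same direction at smaller sizes. Dusp6, a phosphatase that inactivates ERK, was at 20.2, 16.8 and 17.9 CPM against 34.9, 42.4, 31.0, 27.7 and 24.2, without overlap, and Dusp4, a related phosphatase named by the rule and outside the list, differed by -0.95 (SE 0.21). Of the list's other members, Homer1, a postsynaptic scaffold, was at 148, 139 and 167 CPM against 202, 193, 281, 261 and 346 (log2 fold change -0.61, SE 0.14), and the neurotrophin Bdnf differed by -0.59 (SE 0.17), with -0.87 in set 4 and -0.19 in set 5. Vgf, a secreted neuropeptide precursor outside the list, was at 113, 152 and 23.2 CPM against 238, 208, 36.3, 36.6 and 37.3, and the times were apart within each set only. For other members the times overlapped within sets: Jun was at 259, 219 and 49.2 CPM against 270, 248, 43.6, 50.6 and 67.8, and Per1, which is both a clock and an activity gene, had a log2 fold change of -0.07 (SE 0.24).

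Of the other genes lowest at 24 hours, Slc5a3 (chromosome 16, 92058322 to 92087473), the sodium-coupled myo-inositol transporter, was at 111, 85.0 and 73.5 CPM in the early mice. It was at 153, 159, 132, 139 and 133 CPM in the late mice, again without overlap (log2 fold change -0.76, SE 0.13). Fam46a (Tent5a in RefSeq), a poly(A) polymerase family member, was at 4.99 to 5.75 CPM at 24 hours and 6.67 to 13.3 at 2 weeks.

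The promoters of the list were searched for known regulatory words. Windows of 250 bases before to 50 after the start were looked up in RefSeq (GRCm38.p6) for 27 of the 34 members. On either strand, the E-box CACGTG lay in windows of 7 of the 27 genes and in 8.09% of all 27025 genes with a window, the cAMP response element TGACGTCA in 3 and in 2.03%, and the serum response element known as the CArG box in 2 and in 1.81%. The AP-1 word TGACTCA was in none of the 27 and in 5.95% of all genes. None of these words contains another. Among the 11 members with a window that were lower at an unadjusted p under 0.05, the E-box and the CArG box were each in 1 (9.09%), Egr2 in both cases, and TGACGTCA and TGACTCA in none. Egr2 had several windows, and its E-box lay in another window than its CArG boxes. Arc and Egr1 had no window here and were not searched. The 250 bases before an Egr2 start (chr10:67537619-67537868, plus strand, GRCm38.p6) are given with the CArG box in capitals, together with the 250 bases before the start of Ciart, a clock gene described further on (chr3:95882229-95882478, minus strand, GRCm38.p6), with each CACGTG in capitals.
Egr2: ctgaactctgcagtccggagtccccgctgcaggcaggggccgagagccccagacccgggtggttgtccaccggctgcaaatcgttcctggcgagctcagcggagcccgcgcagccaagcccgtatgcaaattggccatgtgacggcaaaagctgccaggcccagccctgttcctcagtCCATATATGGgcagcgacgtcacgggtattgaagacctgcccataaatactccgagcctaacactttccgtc
Ciart: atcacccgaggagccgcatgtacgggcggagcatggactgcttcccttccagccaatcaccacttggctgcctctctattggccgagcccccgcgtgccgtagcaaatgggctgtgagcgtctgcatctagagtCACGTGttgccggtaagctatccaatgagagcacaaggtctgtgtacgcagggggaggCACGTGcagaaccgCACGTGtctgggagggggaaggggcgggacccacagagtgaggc
The match is a description of these letters only. Egr2 itself was at 1.10, 0.766 and 0.512 CPM at 24 hours and at 3.54, 8.36, 1.81, 1.03 and 1.55 at 2 weeks (log2 fold change -2.24, SE 0.47).

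Chaperones were also lower at 24 hours, by less. Of 34 listed heat shock proteins and chaperones, 12 were lower at an unadjusted p under 0.05 against 1.58% of all genes, none was higher, and the median log2 fold change was -0.23, with 31 of 34 below 0. Of these 12, Hspa5, Hsp90b1, Calr, Pdia4, Pdia6, Manf, Creld2 and Dnajc3 act in the endoplasmic reticulum, whereas Hsph1, Dnajb5, Chordc1 and Hspb1 are not residents of that compartment. Hspa5 (BiP; chromosome 2, 34772090 to 34776529), the main chaperone of the endoplasmic reticulum, was at 359, 297 and 215 CPM at 24 hours and at 699, 415, 435, 407 and 409 at 2 weeks. The times did not overlap, mouse 50 lay far above the other late mice, and the log2 fold change was -0.85 (SE 0.18). Hsph1, a cytosolic exchange factor for Hsp70, was at 351, 328 and 311 CPM against 434, 448, 484, 437 and 423, again without overlap (-0.44, SE 0.11). The classical inducible heat shock gene Hspa1a had a log2 fold change of -0.05 (SE 0.35) and Hsp90aa1 one of -0.20 (SE 0.13). The count of 12 changed with single libraries more than that of the immediate early genes did, but the share of all genes moved too. It was 6 without 2-week mouse 50 (0.59% of all genes lower) and 4 without 24-hour mouse 1 (0.873%). Without mouse 4 it was 16, where 1284 of 16103 genes were past that p in either direction. It was 3 without the block (0.68% of all genes lower) and with all 19 m6A libraries in the fit (0.648%).

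Genes of the choroid plexus, the epithelium that secretes cerebrospinal fluid and lies against the hippocampus in the ventricle, had the lowest median of the lists. All 12 listed markers were lower at 24 hours at an unadjusted p under 0.05, against 1.58% of all genes, with a median log2 fold change of -1.94. Their summed level was 99.6, 139 and 967 CPM in 24-hour mice 71, 73 and 1 and 1777, 379, 2248, 1583 and 2345 CPM in 2-week mice 50, 78, 2, 3 and 4. Mouse 1 thus lay above 2-week mouse 78, and within set 4 the 2 late mice differed from each other more than 78 differed from the early mice. The median was -3.58 in set 4 and -1.12 in set 5. Within set 4, 4 of 11 tested markers were past that p, against 2.96% of all genes lower. The count of 12 was 5 without 24-hour mouse 73 (1.85% of all genes lower) and 7 without mouse 71 (0.722%). It was 7 without 2-week mouse 50 (0.59%). Without mouse 4 it was 9, where 1284 of 16103 genes were past that p in either direction. Ttr, the transthyretin carrier of thyroid hormone and the most abundant choroid plexus mRNA, was at 14.0, 29.0 and 543 CPM against 1061, 167, 1293, 973 and 1682. Enpp2, which makes lysophosphatidic acid and is also expressed by oligodendrocytes, was at 34.1, 54.6 and 332 CPM against 376, 129, 783, 460 and 457. F5, coagulation factor V, was at 1.96, 2.15 and 9.37 CPM against 62.4, 8.66, 42.3, 21.9 and 35.9, so its order over the libraries resembled that of the markers. In bulk tissue, fewer cells of a type and less RNA per cell cannot be told apart.

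**Figure D2:**
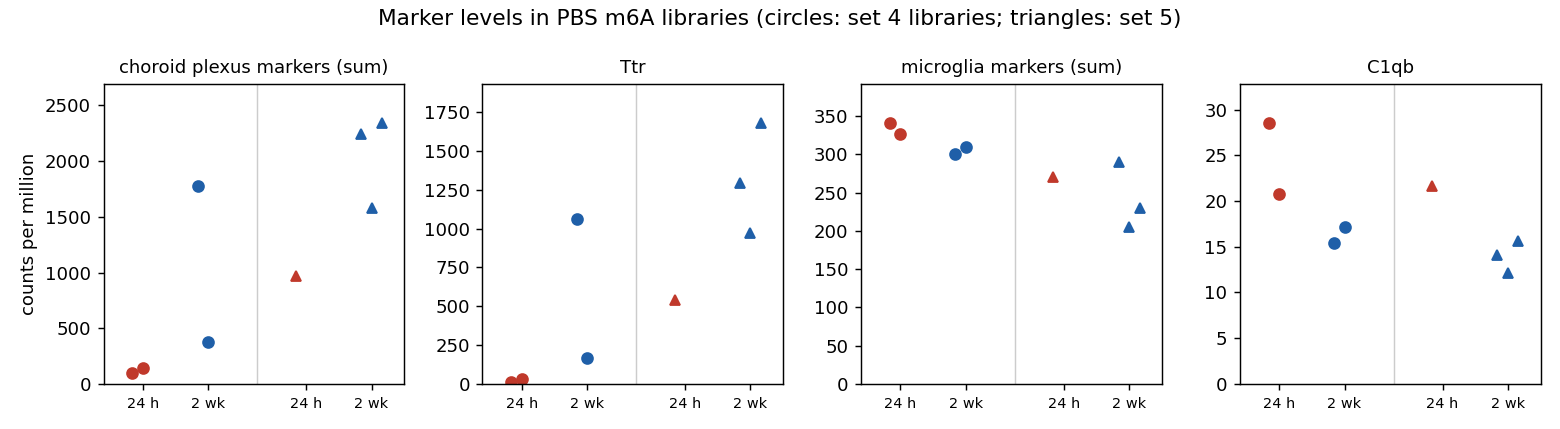
Summed level of 12 choroid plexus markers, level of Ttr, summed level of 12 microglia markers and level of C1qb (CPM, linear axes from 0) in each PBS m6A library, with 24-hour mice in red, 2-week mice in blue, set 4 as circles and set 5 as triangles. The choroid plexus sums of mice 71 and 73 are the lowest of the 8, and C1qb is higher in all 3 early libraries than in all 5 late ones.

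In each of the other cell type and region lists but microglia, at most 1 member was lower and at most 1 higher at an unadjusted p under 0.05, and the medians ran from -0.46 (6 ependymal genes, none past that p) to 0.18 (blood). Some of these lists turned direction between the sets. Within set 4 alone, 2.96% of all genes were lower at that p. The median of 10 oligodendrocyte genes was -0.59 in set 4, with 5 lower at that p, and 0.47 in set 5. That of 9 dentate granule cell genes was -0.33, with 4 lower, and 0.44, and that of the ependymal genes -0.99, with 4 lower, and 0.07. Thalamus markers, which a dissection can carry along, had a median of -0.38 over 9 genes, with sums of 279.5 to 356 CPM at 24 hours and 307 to 526 at 2 weeks. The summed levels of excitatory neuron markers split by library set, 5419 to 5787 CPM in set 4 and 2504 to 3461 in set 5, with overlap of the times. The part of choroid plexus or other tissue in the differences of immediate early and chaperone genes was not tested.

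**Figure D3:**
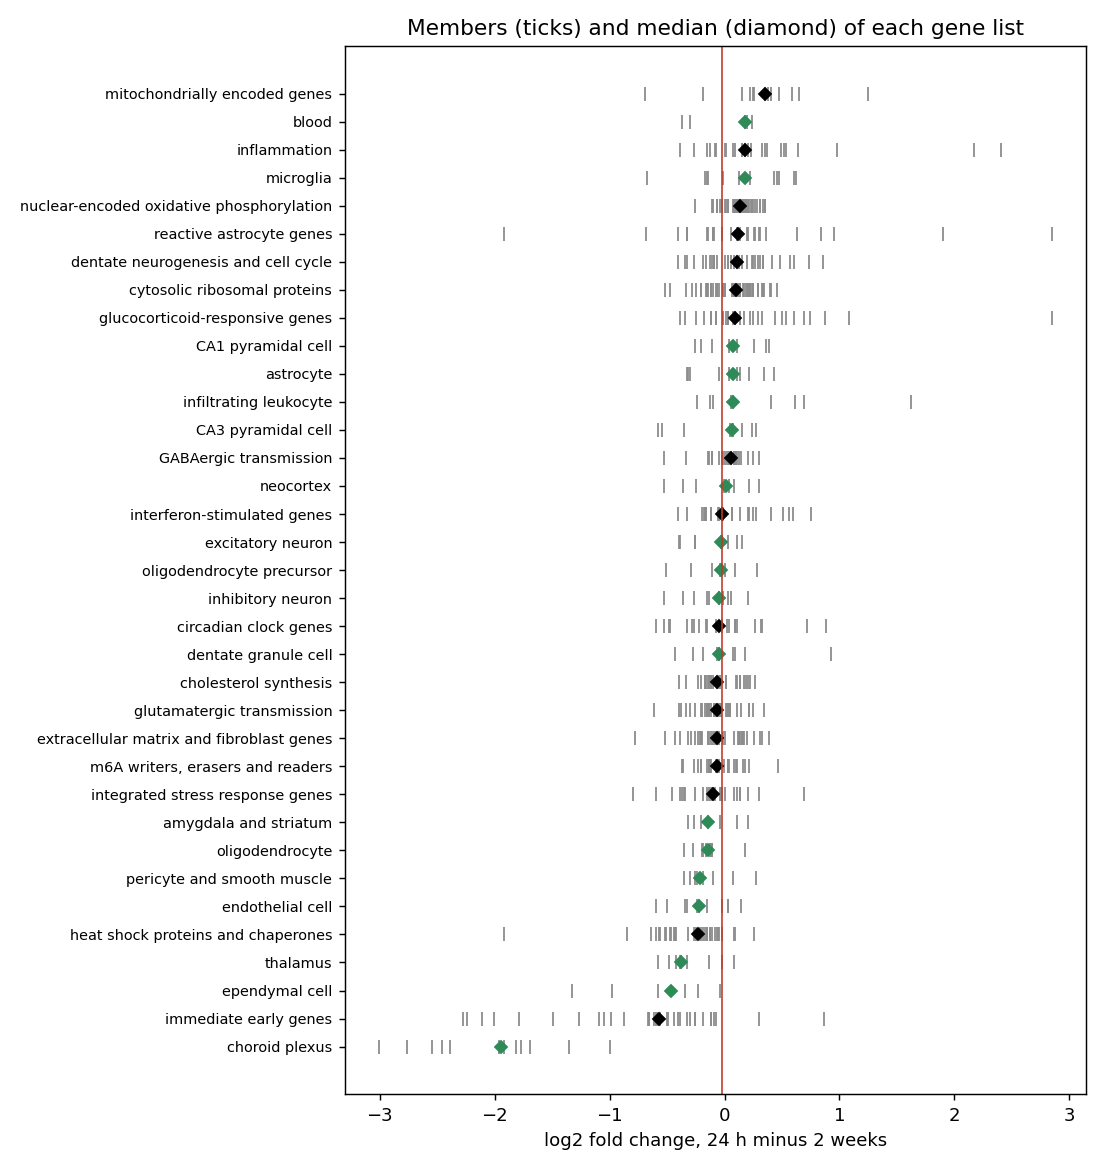
Log2 fold change (24 hours minus 2 weeks) of every tested member of each gene list (grey ticks), with the list's median as a diamond, black for functional lists and green for cell type or region markers; the red line is the median of all genes tested. Immediate early genes and choroid plexus markers lie furthest to the left, with medians of -0.57 and -1.94.

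Genes higher at 24 hours included several of microglia, the brain's resident macrophages. Bin2, a membrane-bending protein of phagocytes, was at 15.2, 11.3 and 8.56 CPM in the early mice and at 6.02, 6.14, 4.38, 3.45 and 5.28 CPM in the late mice. The times did not overlap, a separation seen in that direction in 1.12% of genes (181). The naming rule already asked for separation within both sets, which 707 genes had in that direction. The log2 fold change of Bin2 was 1.07 (SE 0.21). Fcrls, a microglial surface protein, was at 14.0, 12.1 and 12.6 CPM against 6.90, 7.85, 8.68, 6.24 and 7.76 (0.79, SE 0.19). C1qb, a chain of the complement component C1q, was at 28.6, 20.8 and 21.7 CPM against 15.4, 17.2, 14.1, 12.1 and 15.7 (0.62, SE 0.17). As a group, however, microglia markers were mixed: 2 of 12 (C1qb and C1qc) were higher at an unadjusted p under 0.05, against 1.12% of all genes. Of the 12, 5 had a log2 fold change below 0, the lowest at -0.67. The median was 0.17, with sums of 271 to 341 CPM at 24 hours and 205 to 309 at 2 weeks.

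A few inflammatory and acute-phase genes were higher at 24 hours, unevenly among the 3 early mice. Complement C3 was at 27.2 CPM in mouse 71, 2.91 in mouse 73 and 5.12 in mouse 1, and at 1.94, 2.72, 1.81, 1.45 and 0.621 CPM at 2 weeks, so its log2 fold change of 2.40 (SE 0.65) was led by mouse 71. Lcn2, an iron-scavenging lipocalin of reactive astrocytes, was at 9.91 and 5.56 CPM in mice 71 and 1 but at 0.306 in mouse 73, within the range of 0 to 1.27 CPM of the late mice. Of 25 tested inflammation genes, 3 were higher at an unadjusted p under 0.05 (C3, Ccl12 and Nfkbia) and none lower, against 1.12% and 1.58% of all genes, and the median was 0.18. None of 28 interferon-stimulated genes was past that p in either direction. Of 31 glucocorticoid-responsive genes 4 were higher (Nfkbia, Sult1a1, Lcn2 and Ddit4), and of 26 reactive astrocyte genes 2 were higher (Lcn2 and Steap4) and 2 lower (Hspb1 and Tm4sf1).

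Dbp, a transcription factor driven directly by the circadian activator CLOCK and BMAL1, was at 27.9, 36.0 and 35.0 CPM at 24 hours and at 18.4, 22.7, 19.5, 22.6 and 16.9 at 2 weeks. Ciart, a repressor of that activator whose promoter is printed above with its E-boxes, was at 5.47, 6.44 and 7.17 CPM against 3.43, 3.22, 3.20, 4.54 and 3.26. Neither gene overlapped between times (log2 fold changes 0.72, SE 0.17, and 0.89, SE 0.23). Nfil3, a repressor that binds the same sites as DBP, was lower, with a log2 fold change of -0.60 (SE 0.20). The other 19 of 22 clock genes did not reach an unadjusted p of 0.05, and the list's median was -0.05. Over all genes, 1.12% were higher and 1.58% lower at that p. The E-box CACGTG was in a window of 5 of the 18 clock genes with a window, against 8.09% of all genes with a window. The window of Dbp itself held no CACGTG. Collection time of day was not given, and its part in these values cannot be told apart from time since injection.

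Cirbp, an RNA-binding protein induced by mild cold, was at 18.0, 25.4 and 25.0 CPM at 24 hours and at 14.5, 14.0, 11.7, 13.6 and 14.3 at 2 weeks (0.74, SE 0.17). The glycolytic enzymes Gapdh (0.47, SE 0.13) and Aldoc, an astrocyte isoform of aldolase (0.43, SE 0.12), were higher without overlap. Aldoc was at 240.2 to 248 CPM in the early mice and 141 to 199 in the late ones. The other genes of the rule were Mlph, Sult1a1, Cdk5rap3 and Fam205c, with log2 fold changes of 0.57 to 0.85. Of nuclear-encoded oxidative phosphorylation genes, 38 of 45 were above 0, where 46.8% of all genes were, with a median of 0.13, but none reached an unadjusted p of 0.05. Nor did any of 54 cytosolic ribosomal protein genes (median 0.10) or 13 mitochondrially encoded genes (median 0.36). Without the set as a block the first 2 medians turned, to -0.04 with 26 of 45 below 0 and to -0.22 with 44 of 54 below 0. Glutamatergic transmission (37 genes), GABAergic transmission (27), extracellular matrix (38), cholesterol synthesis (27), neurogenesis and cell cycle (33) and integrated stress response genes (25) each had at most 1 member past it in either direction, with medians of -0.10 to 0.11.

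The m6A machinery was measured as well. Of 27 tested writers, erasers and readers, Mettl16, the methyltransferase of U6 snRNA and of the Mat2a message, was alone past an unadjusted p of 0.05. That is 3.7% of these genes, where 2.7% of all genes were past that p in either direction. The list therefore hardly stood out from all genes. Mettl16 was at 37.3, 35.8 and 28.1 CPM at 24 hours and at 41.0, 39.4, 43.6, 48.7 and 43.0 at 2 weeks (log2 fold change -0.36, SE 0.16). The catalytic writer Mettl3 differed by 0.11 (SE 0.24), its partner Mettl14 by 0.08 (SE 0.29) and the adaptor Wtap by -0.07 (SE 0.11). The eraser Fto differed by 0.16 (SE 0.12) and Alkbh5 by -0.16 (SE 0.12). The readers Ythdf1 and Ythdf2 differed by -0.21 (SE 0.27) and 0.04 (SE 0.22). The signs of Mettl3, Mettl14 and Ythdf2 depended on the libraries in the fit.

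Over all genes the 2 library sets were weakly related. Across 11801 genes with a mean of at least 5 CPM, log2 fold changes of set 4 (2 against 2 mice) and set 5 (1 against 3 mice) had Pearson's r = 0.09 and Spearman's rho = 0.06, and 52.1% had the same sign. These are descriptions across genes, which are not independent replicates. Among the immediate early genes 29 of 34 had the same sign. In set 5 the early time was a single library, so its spread there was taken from the late mice.

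**Figure D4:**
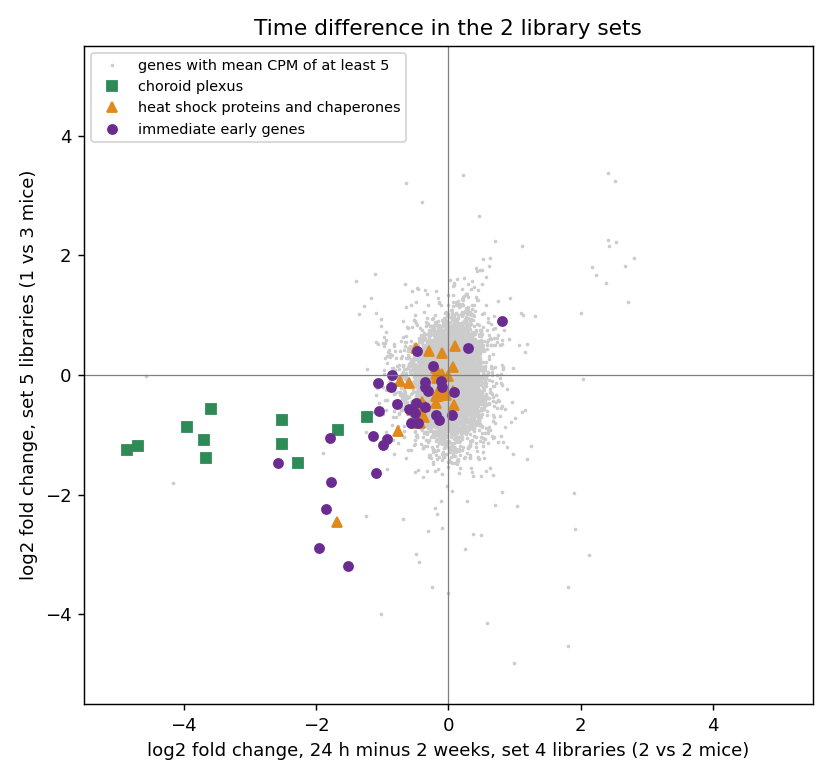
Log2 fold change (24 hours minus 2 weeks) in the set 4 libraries against that in the set 5 libraries, 1 point per gene with a mean of at least 5 CPM in grey, with the immediate early, chaperone and choroid plexus lists in colour; 1 gene lies outside the axes. The grey cloud has r = 0.09, and 27 of the 34 immediate early genes (purple) lie in the lower left, below 0 in both sets.

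The PBS time difference was then set against that of the 11 IAKA libraries, 5 at 24 hours and 6 at 2 weeks, by a test of the difference between the 2 over 17440 genes. At an adjusted p of 0.05, 2 genes were called (0.0115%), and 536 had an unadjusted p under 0.05 (3.07%). Tm4sf1, a membrane protein of endothelium and reactive astrocytes, was at 3.91 to 5.64 CPM in the PBS mice at 24 hours and 5.51 to 10.5 at 2 weeks, whereas IAKA mice were at 42.1 to 54.9 CPM at 24 hours and 8.23 to 13.7 at 2 weeks. The difference of differences was -2.91 on the log2 scale (SE 0.32, adjusted p = 0.000689, edgeR). Trib1, a pseudokinase scaffold of the immediate early list, was at 4.61 to 9.29 and 5.93 to 13.5 CPM in PBS mice and at 17.6 to 60.7 and 5.84 to 10.9 in IAKA mice (-2.22, SE 0.34, adjusted p = 0.0275, edgeR). Without any 1 of mice 71, 73, 1, 78, 2 or 4, Tm4sf1 alone was called.

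Among the 34 immediate early genes, 10 had an unadjusted p under 0.05 in this test, all with the PBS difference below the IAKA one, against 2.1% of all genes in that direction. In IAKA mice the list's median time difference was 0.03 and that of PBS mice -0.57. Fos differed by 1.09 in IAKA mice, which gave a difference of differences of -3.30 (SE 0.62, adjusted p = 0.181, edgeR). For Npas4 the difference of differences was -3.97 (SE 0.77, adjusted p = 0.229) and for Egr1 -1.83 (SE 0.40, adjusted p = 0.465). Arc was lower at 24 hours in both, -0.87 in IAKA mice against -1.79 in PBS mice, and Homer1 likewise, -0.41 against -0.61. A further library set that holds IAKA mice alone entered this test. The IAKA mice of set 4 (97 and 79) were all 24-hour mice. Those of set 5 (21, 7 and 9) were all 2-week mice. The IAKA time difference therefore depends in part on set differences that PBS mice helped to estimate. In the further set, 24-hour mice 67 and 98 held 1979606 and 1652933 counts. In 10 of 26 reactive astrocyte and 11 of 28 interferon-stimulated genes, the PBS difference was lower at an unadjusted p under 0.05. Over all genes, 2.1% had the PBS difference below the IAKA one at that p. The median time differences of these lists were 0.121 and -0.024 in PBS mice. In IAKA mice they were 1.198 and 1.074, so the lists differed mainly through higher levels at 24 hours in IAKA mice.

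**Figure D5:**
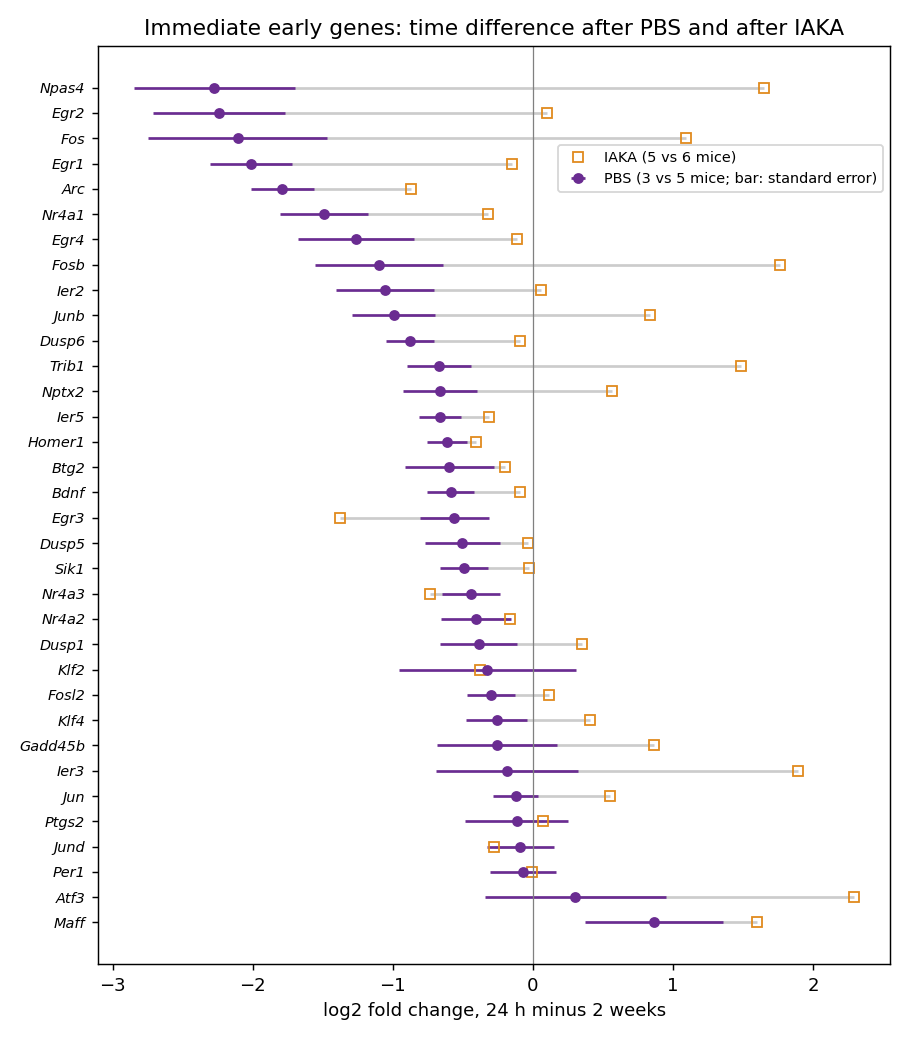
Log2 fold change (24 hours minus 2 weeks) of the 34 immediate early genes in PBS mice (purple circles, with standard error bars) and in IAKA mice (open orange squares), ordered by the PBS value. PBS values lie left of 0 for 32 of 34 genes, and IAKA values lie on both sides.

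Input libraries, made from total RNA without pulldown, allowed a comparison in 4 of the 8 mice: mouse 1 at 24 hours and mice 2, 3 and 4 at 2 weeks. The inputs of mice 71 and 73 held 4621 and 34486 counts and were left out. Pulldown and input were similar, and which of a mouse's libraries is which rests on the inference from column names. Across 11805 genes they correlated at r = 0.970, 0.959, 0.948 and 0.874 in mice 1, 2, 3 and 4, and the ratio of pulldown to input lay within 1 log2 unit of equality for 98.2, 96.4, 94.1 and 80.5% of genes. A test of whether the pulldown to input ratio differed with time called none of 16979 genes (edgeR, 0% called), with 210 at an unadjusted p under 0.05 (1.24%), 115 of them lower at 24 hours (0.677%), and none of the immediate early genes was among these. With 1 mouse at 24 hours, its spread was taken from the others, so the absence of calls does not show equal ratios. The median difference of that ratio with time was -0.25 for the immediate early genes and -0.02 over all genes. By mouse, the list's median log2 ratio was -0.16 in mouse 1 and -0.11, 0.29 and 0.29 in mice 2, 3 and 4. This main fit had no term for the library set or the mouse, so it did not use the pairing of pulldown and input.

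Some immediate early genes were lower in the single 24-hour input as well. Egr1 was at 14.9 CPM in the input of mouse 1 and at 64.6, 37.5 and 59.2 in those of mice 2, 3 and 4, and Arc at 13.7 against 44.8, 22.3 and 32.7. In total, 17 of 34 were lower in the input of mouse 1 than in all 3 late inputs and 3 were higher than in all 3, where 33.2% of all genes with at least 5 CPM were lower and 32% higher. Slc5a3 was at 74.3 CPM in the input of mouse 1 against 126, 120.1 and 126, and Hspa5 at 187 against 274, 279 and 269. Vgf showed another pattern: its input was at 29.7 CPM in mouse 1 and 22.5, 16.9 and 21.6 in the late mice, while its pulldown was lower in mouse 1 (log2 pulldown over input -0.42 against 0.59, 0.99 and 0.63). The test of the ratio with time did not call Vgf, and its difference rests on 1 mouse at 24 hours. Dbp was at 28.9 CPM in the input of mouse 1 against 14.9, 18.9 and 15.6, and Cirbp at 25.9 against 10.8, 11.5 and 13.2, so both were higher at 24 hours as in the pulldown. Fcrls and C1qb were not: the input of mouse 1 had 7.87 CPM of Fcrls against 10.1, 9.13 and 8.76, and 7.71 CPM of C1qb against 8.73, 7.10 and 8.96. For neither gene did the pulldown to input ratio pass the test of a difference with time (unadjusted p = 0.057 and 0.0948, edgeR).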

How the data were processed

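Hippocampal RNA was immunoprecipitated for m6A or kept as input, and libraries were made with a stranded total RNA kit, per the labels. The authors deposited whole-number read counts for 32544 genes, 4 lane columns per library, against mm10; no source used here gives the aligner, counter or strand setting, and values of overlapping or near-identical genes are therefore uncertain. Lanes were summed; 8 columns that match no sample were not used. Input is named in the columns of 8 libraries, and the assay of the other 27 was inferred from column prefixes. Here edgeR 4.0.16 (TMM, its expression filter, robust quasi-likelihood test, Benjamini-Hochberg at 0.05) was fitted after tests on simulated data. Library set was a block except in the pulldown to input test. CPM values use TMM-scaled totals. DESeq2 1.42.0, limma 3.58.1 and R 4.3.3 served alternatives: no block, each set alone, other scaling, filters, all 19 m6A libraries, a threshold of 0.01 and each library left out. Depth of the 8 PBS m6A libraries was 6579414 to 27894393 counts, so 3 counts equal 0.108 to 0.456 CPM, and only counting error is covered.

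Genes were named as the 12 higher and 12 lower with a mean of at least 5 CPM, no overlap within sets and the largest change past the threshold, filled up by smallest p since none passed; predicted genes were not named, and 7 m6A enzymes were added. The other genes named were chosen after their values were seen. The parts compared and the gene lists were chosen with earlier results of these data known. Virma and 24 of 25 listed nuclear long noncoding RNAs were not analysed here. Separate mice are separate samples by their labels. Same-numbered pulldown and input libraries come from the same mouse, which pairs them.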

Additional observations from a re-analysis of the deposited data

Results flagged for a closer look

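Among the 5 late libraries, 60 quantities were examined for a value far from the others (24 named genes and 36 summed gene lists), and chance alone would single out about 1 in 20. In 2-week mouse 50, Hspa5 was at 699 CPM with the other 4 at 407 to 435. In 2-week mouse 78, the interferon-stimulated genes summed to 279 CPM with the others at 163 to 193.

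For 2 genes the time difference of PBS mice differed from that of IAKA mice by the test of the difference itself: Tm4sf1 by -2.91 and Trib1 by -2.22 on the log2 scale.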

How the results depend on the processing

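The count of 0 in the time comparison was kept without the block, within each set, with library-size scaling, with a mean of at least 10 counts, without mitochondrial and ribosomal RNA genes, with all 19 libraries, at 0.01 and in each of the 8 fits without 1 library (lowest and highest 0). DESeq2 called 14 (1 higher, 13 lower), voom 10 (2 higher, 8 lower) and the unfiltered fit, with 27873 genes tested, 154 (89 higher, 65 lower). Chosen after seeing the data, DESeq2 without mouse 4 called 47 (12 higher, 35 lower) and voom without it 0. The cause was not tested. Without mouse 4, 1284 genes had an unadjusted p under 0.05 in edgeR.

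The interaction with IAKA gave 19 genes in DESeq2, 1 without the block and 1 to 3 with 1 PBS library left out; without mouse 50 Fos was the third. The pulldown to input test gave 0 genes with the mouse as replicate block (250 at an unadjusted p under 0.05), which changed no call, 1 in DESeq2 and 0 to 5 with 1 late mouse left out, the 5 without mouse 4 being the predicted genes Gm6472, Gm9800, Gm28438, Gm13690 and Gm5641.

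Among single genes, Arc, Egr1, Slc5a3, Vgf, Dusp6, Dusp4 and Bin2 each passed the threshold in 4 of 20 alternatives. Mettl14 and Ythdf2 turned to -0.12 and -0.080 within set 4 and to -0.050 and -0.040 in voom. Without mouse 4 they were at -0.061 and -0.064 in DESeq2 and at -0.056 and -0.041 in voom. Mettl3 was at -0.076 without the block. With 1 library left out at a time, Mettl3 ran from -0.11 to 0.30, Mettl14 from -0.12 to 0.18 and Ythdf2 from -0.078 to 0.14. The medians of the immediate early genes (-0.61 to -0.38), chaperones (-0.32 to -0.18) and choroid plexus markers (-3.58 to -1.12) kept their sign in all 20 alternatives.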
